A study of Mus musculus with 12 samples.

Results

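The enzymes of purine and pyrimidine metabolism build, recycle and degrade the nucleotides of RNA and DNA. A list of 40 mouse genes for these enzymes was followed here in a bulk liver RNA-seq count table of 27179 genes. The list was drawn up by function, with earlier results of these data known, and all 40 genes were found through their Entrez identifiers. It was divided into de novo pyrimidine synthesis (4 genes), pyrimidine ribonucleoside salvage (4), deoxynucleotide supply (10), nucleoside diphosphate kinases (2), de novo purine synthesis (9), synthesis of phosphoribosyl pyrophosphate (PRPP, 2), purine base salvage (2), pyrimidine breakdown (5) and purine breakdown (2).

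Livers came from 4 groups of male mice, 3 libraries each. The mice were 8 weeks old when the diets began. The study names the strain as C57/Bl3 in its methods and as a mix of 129/Ola and C57BL/6 elsewhere, so the strain of these livers is uncertain. The mice ate a chow diet (CD) or a low-protein diet (LPD) from 1 week before injection onward. They received an empty vector (Vec, called WT in the labels) or an oncogene pair, human c-MET with β-catenin lacking its N terminus, both under the EF1α promoter, through hydrodynamic tail vein injection with Sleeping Beauty transposase. The pair, labelled cMet & β-catenin and called c-MET/β-catenin (oncogene) below, drives hepatocellular carcinoma in mice, and livers of all groups were taken once the CD oncogene mice had come to their end point. The injection reaches a part of the hepatocytes, so each oncogene library mixes cells with and without the plasmids. The study describes 3 mice per group, while the labels only number the replicates, and p-values measure the spread between these libraries. The study asked whether less dietary protein relieves the nitrogen burden of such livers, and nucleotide synthesis is 1 of the routes that take up nitrogen.

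Cells obtain nucleotides either de novo, from amino acids, bicarbonate and one-carbon units assembled with PRPP, or by salvage of bases and nucleosides. Ribonucleotide reductase then turns ribonucleotides into deoxynucleotides for DNA, an activity that is high in dividing cells. The adult liver is also a main site of nucleotide breakdown: it degrades uracil and thymine to beta-amino acids, and in mice it oxidizes purines through xanthine and uric acid to allantoin.

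The libraries held 19476209 to 31990267 counts, and 39 of the 40 genes had at least 10 counts in every library. The exception, Dctd (dCMP deaminase), had 0 to 29 counts, was filtered as low and was not tested. Hepatocyte markers were abundant throughout, with 7 genes including Alb, Ttr and Hnf4a summing to between 81634 and 138404 CPM (counts scaled to a common library size) in each library, as the tissue label states. A header line of the count table carries 1 dataset number per column, in 3 runs that the labels do not explain. CD oncogene replicates 1 and 2 are alone in their run, CD Vec replicates 1 and 2 share another with LPD Vec replicate 1, and the other 7 libraries form the last. Levels below are CPM scaled by the trimmed mean of M values (TMM), in the order of replicates 1, 2 and 3. Log2 fold changes (log2FC), their standard errors (SE) and adjusted p-values are from edgeR's quasi-likelihood test with Benjamini-Hochberg adjustment over 13947 genes, and a gene was called at an adjusted p under 0.05.

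On CD, oncogene livers had lower transcript levels of most breakdown enzymes and of 6 of the 9 genes of de novo purine synthesis, and higher levels of Rrm1, Rrm2, Tyms, Ctps2, Aprt, Impdh1 and Upp1. Of the 39 genes tested, 21 were called between oncogene and Vec on CD (53.8%, where 35.4% of all genes tested were called). There were 7 called higher (17.9%, against 18.7% of all genes) and 14 called lower (35.9%, against 16.7%). The median log2FC of the 39 genes was -0.34, and that of all genes was -0.01. On LPD, 0 of the 39 were called between oncogene and Vec (against 1.32% of all genes), and the median was -0.07. An unadjusted p under 0.05 was found for 0 of them (1545 of the 13947 genes tested), and DESeq2 called 0 (481 of the 15148 genes with an adjusted p). In Vec livers, 0 were called between LPD and CD (against 0.308% of all genes). There 5 had an unadjusted p under 0.05 (1377 of the 13947 genes tested). DESeq2 called 2, Tk1 and Upp2 (340 of the 13999 genes with an adjusted p). In oncogene livers, 11 were called between LPD and CD (28.2%, against 20.0% of all genes), 5 higher on LPD (12.8%, against 8.66%) and 6 lower (15.4%, against 11.3%). The comparison of LPD with CD in oncogene livers uses the same 3 CD oncogene libraries as the comparison on CD, so the 2 are not independent. The injection by diet interaction, which subtracts the log2FC of oncogene livers on CD from their log2FC on LPD, was called for 7 of the 39 (17.9%, against 8.91% of all genes). It was positive for 5 (12.8%, against 4.49%) and negative for 2 (5.13%, against 4.42%).

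Scaling by library totals alone moved the median log2FC of all genes on CD from -0.01 to 0.28, and the 20 calls among nucleotide enzymes then split into 12 higher and 8 lower. Of all 13947 genes tested, 5670 were then called on CD. For the interaction this scaling gave 3 positive and 3 negative calls among the nucleotide enzymes, and 1271 calls over all genes. A term for the 3 header runs reduced the calls on CD from 21 to 5 (Ctps2, Tyms, Ppat, Dpyd and Uox). Over all 13947 genes tested, that term reduced them from 4933 to 945. The calls between diets in oncogene livers went from 11 to 3 (Ctps2, Tyms and Aprt, all lower on LPD), and over all genes from 2784 to 618. Among the enzymes, 0 of the 5 calls of higher levels on LPD were left. With that term 0 interactions were called among the enzymes, and 85 over all genes, against 1243 without it. The run and the injection cannot be told apart for CD oncogene replicates 1 and 2. In bulk tissue, fewer cells of a type and less RNA per cell cannot be told apart either.

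**Figure D1:**
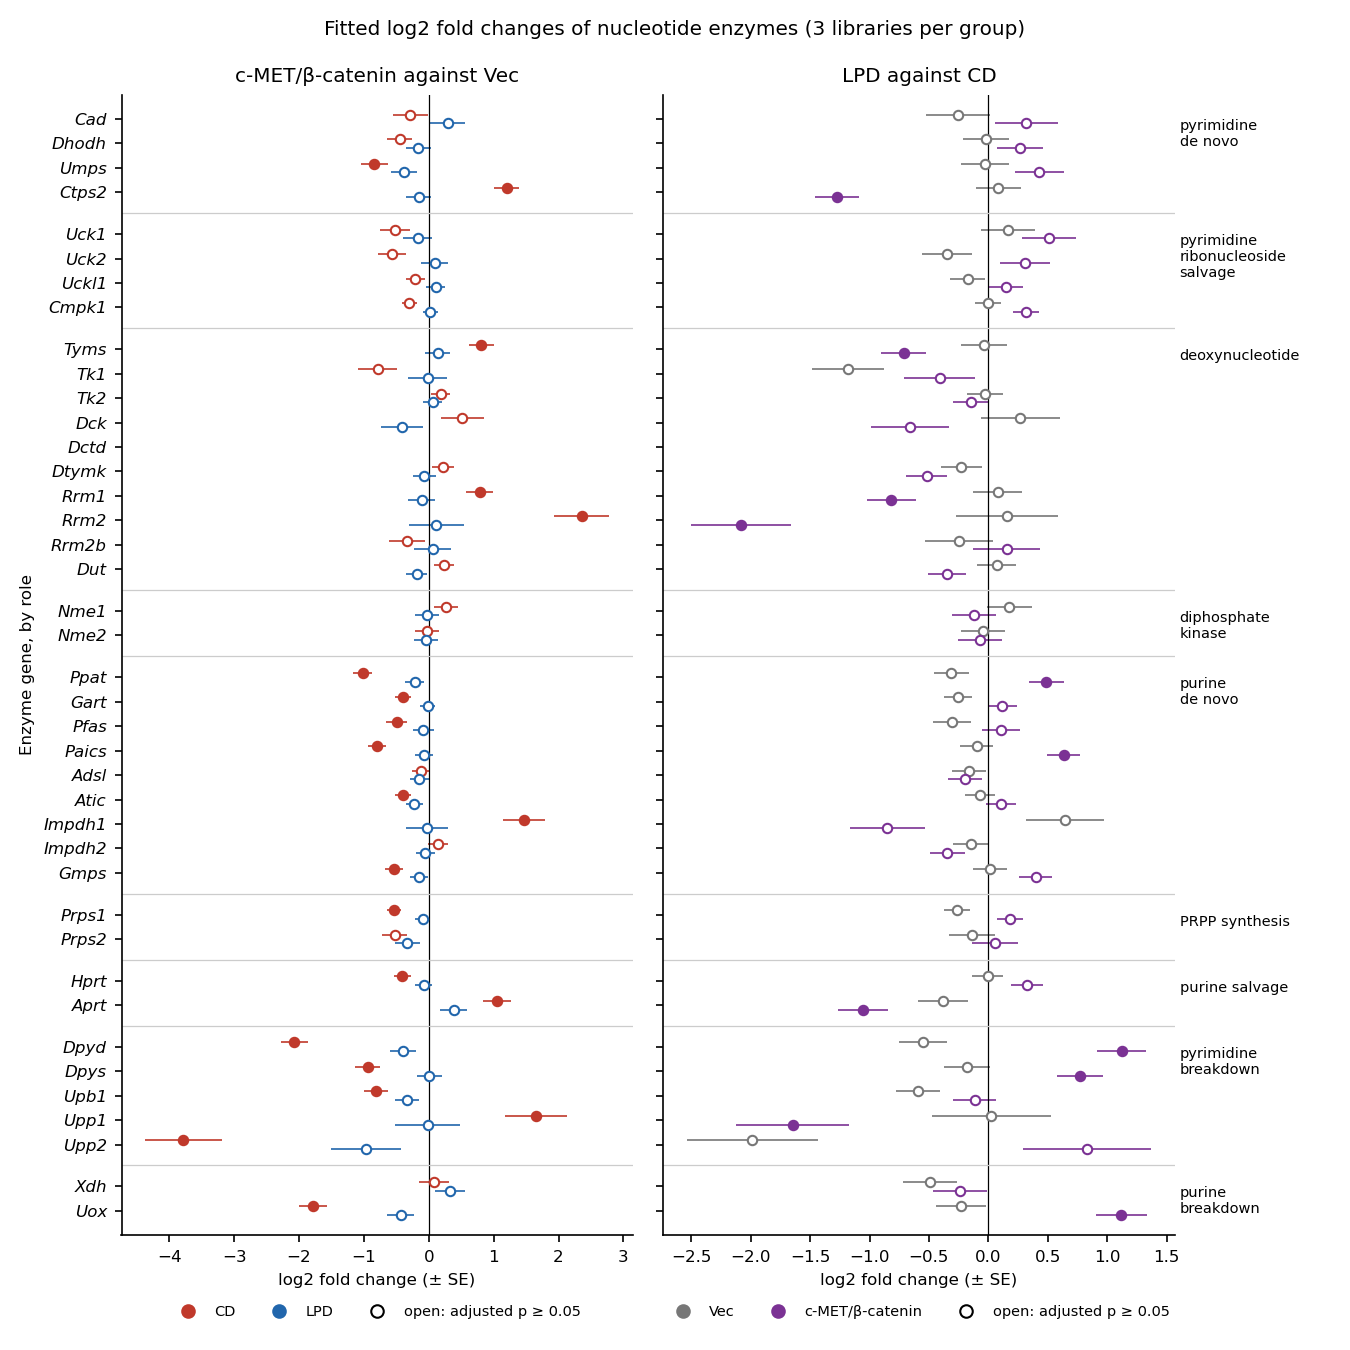
Fitted log2FC values of the 39 tested enzyme genes by role, with standard errors (3 libraries per group), and filled points for genes called. The left panel compares oncogene with Vec on CD and on LPD, the right panel LPD with CD in Vec and in oncogene livers, and the 2 horizontal scales differ. On CD 21 points are filled, from -3.78 (Upp2) to 2.35 (Rrm2), and on LPD none is.

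De novo pyrimidine synthesis begins with Cad, the multifunctional protein of its first 3 steps, continues with the mitochondrial Dhodh and with Umps, which makes UMP, and leads through CTP synthases such as Ctps2 to CTP. Ctps2 read 14.5, 8.64 and 13.0 CPM in CD Vec, 27.2, 27.3 and 28.5 in CD oncogene, 11.1 to 15.2 in LPD Vec, and 10.1, 12.1 and 12.1 in LPD oncogene. All 3 CD oncogene libraries lay above the other 9 libraries, which overlapped one another. Ctps2 rose 2.30-fold on CD (log2FC 1.20, SE 0.19, adjusted p = 0.000547). On LPD its log2FC between oncogene and Vec was -0.16 (SE 0.19, adjusted p = 0.874). The interaction was called (-1.36, SE 0.26, adjusted p = 0.0127). Leaving out any 1 of the 12 libraries kept that call, and the header run term ended it (-1.43, adjusted p = 0.0984).

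Umps went the other way on CD. Its levels were 56.3, 50.9 and 39.7 CPM in CD Vec and 18.9, 27.1 and 36.2 in CD oncogene, and these ranges did not overlap. The LPD Vec libraries held 44.3 to 50.5 CPM and the LPD oncogene libraries 32.8 to 40.6. Umps fell by 0.84 on the log2 scale on CD (SE 0.21, adjusted p = 0.00777). With the header run term that call was lost (adjusted p = 0.649). For Cad, the committed enzyme of the pathway, no difference was called in any comparison. Cad read 13.7, 33.8 and 16.7 CPM in CD Vec, 20.3, 16.7 and 15.6 in CD oncogene, 16.4, 18.7 and 18.7 in LPD Vec, and 22.7, 23.6 and 19.5 in LPD oncogene. CD Vec replicate 2 stood above all other libraries, and the CD groups overlapped, while on LPD the 3 oncogene libraries were above the 3 Vec libraries without a call. Its log2FC on CD was -0.28 (SE 0.27, adjusted p = 0.441), and without CD Vec replicate 2 it was 0.20. Dhodh was not called either, with group means between 7.58 and 10.3 CPM.

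None of the 4 ribonucleoside salvage genes was called in any comparison. They are the uridine-cytidine kinases Uck1, Uck2 and Uckl1, which phosphorylate salvaged nucleosides, and Cmpk1, which converts the monophosphates to diphosphates. On CD their log2FC values were all below 0, from -0.56 to -0.21. Uck2 had group means of 4.30 CPM ± 0.305 (SD, n = 3) in CD Vec and 2.90 ± 0.563 in CD oncogene, a log2FC of -0.56 (adjusted p = 0.057). The Vec and oncogene libraries of Uck2 did not overlap on CD. Cmpk1, the most abundant of the 4 per length, averaged 99.3 CPM in CD Vec and 80.8 in CD oncogene.

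Deoxynucleotide supply rests on ribonucleotide reductase, a complex of the large subunit Rrm1 with the small subunit Rrm2 in dividing cells or with its p53-inducible counterpart Rrm2b. Thymidylate synthase (Tyms) makes dTMP from dUMP. Rrm1, Rrm2 and Tyms were the deoxynucleotide genes called higher on CD, so the 250 bases before their annotated starts are shown. They are RefSeq sequences of GRCm38.p6 (the assembly also named mm10), read 5′ to 3′ on the strand of the gene: chr7:102441445-102441694 (plus strand) for Rrm1, chr12:24708004-24708253 (plus) for Rrm2 and chr5:30073626-30073875 (minus) for Tyms. Capitals mark CCAAT in Rrm1 and Rrm2 and the E-box CACGTG in Tyms.
Rrm1: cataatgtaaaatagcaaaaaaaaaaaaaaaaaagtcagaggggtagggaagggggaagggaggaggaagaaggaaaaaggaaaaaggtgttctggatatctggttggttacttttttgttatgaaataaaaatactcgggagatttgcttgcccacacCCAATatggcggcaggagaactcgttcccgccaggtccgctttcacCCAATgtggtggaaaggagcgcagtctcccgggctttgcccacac
Rrm2: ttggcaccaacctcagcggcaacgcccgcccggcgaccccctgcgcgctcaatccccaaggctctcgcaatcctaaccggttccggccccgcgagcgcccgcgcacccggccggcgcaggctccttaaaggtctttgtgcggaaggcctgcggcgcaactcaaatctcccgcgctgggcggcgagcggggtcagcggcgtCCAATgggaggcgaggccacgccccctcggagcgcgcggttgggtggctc
Tyms: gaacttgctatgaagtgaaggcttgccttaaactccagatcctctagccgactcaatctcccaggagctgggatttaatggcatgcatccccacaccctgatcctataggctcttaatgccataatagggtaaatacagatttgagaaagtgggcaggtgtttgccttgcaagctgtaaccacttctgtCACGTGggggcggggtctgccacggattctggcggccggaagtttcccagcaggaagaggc

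The motifs TTTNNCGC, CCAAT and CACGTG were searched on both strands of windows that run from 250 bases before to 50 bases after the start, over 35 of the 40 genes and 18458 genes of the count table with such a sequence. A gene with several starts has several windows, and it was counted once if any of them held the motif. No window was held for Rrm2b, Xdh, Pfas, Dhodh and Dpys. CCAAT, the box bound by NF-Y, was found for 13 of the 35 genes (37.1%) and for 42.2% of all genes. The E-box CACGTG, which MYC and related factors bind, was found for 6 (17.1%) and for 8.99% of all. TTTNNCGC, a loose form of the E2F site, was found for 6 (17.1%) and for 7.11% of all. The counts are small, and a match is a description of the sequence only. Rrm1 held CCAAT at positions -91 and -45 and Rrm2 at -50 relative to the start, and Tyms held CACGTG at -61 and TTTNNCGC at 42.

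Rrm2 had the largest log2FC among the genes that rose on CD. It read 4.69, 5.46 and 4.84 CPM in CD Vec, 45.6, 9.75 and 21.2 in CD oncogene, 4.56, 5.66 and 6.51 in LPD Vec, and 6.40, 6.74 and 4.99 in LPD oncogene. The 3 CD oncogene libraries were above the other 9 but spread widely among themselves. Rrm2 rose 5.11-fold on CD (log2FC 2.35, SE 0.43, adjusted p = 0.0015). It was lower on LPD than on CD in oncogene livers (-2.08, SE 0.42, adjusted p = 0.00615), and its log2FC on LPD between oncogene and Vec was 0.12 (SE 0.42, adjusted p = 0.965). The interaction was called (-2.24, SE 0.60, adjusted p = 0.0401). CD oncogene replicate 1 carried part of the size: without it the log2FC on CD was 1.63, that between diets -1.35 and the interaction -1.51, and all 3 were called. The interaction lost its call in the 9 fits that left out a library of another group, with adjusted p from 0.0574 to 0.0931.

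Rrm1 and Tyms rose less. Rrm1 read 11.1, 7.33 and 14.8 CPM in CD Vec, 17.1, 18.5 and 21.8 in CD oncogene, 11.7, 11.3 and 12.1 in LPD Vec, and 10.9, 11.1 and 10.5 in LPD oncogene. The CD oncogene libraries again lay above the other 9. Rrm1 rose 1.73-fold on CD (log2FC 0.79, SE 0.21, adjusted p = 0.0112), was lower on LPD than on CD in oncogene livers (-0.82, adjusted p = 0.0162), and had an interaction of -0.90 that was not called (adjusted p = 0.0768). Tyms held 6.57, 6.54 and 6.25 CPM in CD Vec, 8.40, 11.5 and 14.0 in CD oncogene, 6.14, 6.34 and 6.36 in LPD Vec, and 6.21, 7.72 and 6.73 in LPD oncogene. Only the CD oncogene libraries exceeded 8 CPM. Tyms rose 1.75-fold on CD (log2FC 0.81, SE 0.19, adjusted p = 0.0062) and was lower on LPD than on CD in oncogene livers (-0.71, SE 0.19, adjusted p = 0.02). The diet call of Rrm1 was lost without LPD oncogene replicate 1 or 3 (adjusted p = 0.0521 and 0.0619), and that of Tyms without CD oncogene replicate 2 or 3 or LPD oncogene replicate 1 or 3 (0.0517 to 0.0795).

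The other deoxynucleotide genes were not called in any comparison. Tk1, the cytosolic thymidine kinase that is usually high in S phase, did not follow Rrm2. Tk1 read 17.9, 34.3 and 33.6 CPM in CD Vec, 9.94, 20.4 and 19.4 in CD oncogene, 14.1, 13.6 and 10.1 in LPD Vec, and 12.3, 10.3 and 14.9 in LPD oncogene. Its highest libraries were in CD Vec, and the CD groups overlapped. The log2FC was -0.79 between oncogene and Vec on CD (SE 0.30, adjusted p = 0.0574) and -1.18 between LPD and CD in Vec (SE 0.30, adjusted p = 0.12). The latter was called by DESeq2 (adjusted p = 0.0121) and without CD Vec replicate 1 (adjusted p = 0.048). Tk1 overlaps Afmid in the annotation, and since the strand setting of the counting is not given in the sources used here, reads of the 2 genes may be mixed. The same limit holds for Ctps2 (with S100g), Uox (Dnase2b), Cad (Atraid), Gmps (Slc33a1), Uck1 (Pomt1), Uckl1 (Uckl1os), Pfas (Mir3062), Dpys (Gm16291) and Upp2 (Acvr1). Dtymk, which phosphorylates dTMP, had a log2FC of -0.52 between LPD and CD in oncogene livers (adjusted p = 0.051). Dck, Dut, Rrm2b and the mitochondrial Tk2 had log2FC values between -0.34 and 0.52 on CD. Dctd had 0, 0.0569 and 0.104 CPM in CD Vec and 0.838, 0.245 and 0.412 in CD oncogene, with at most 0.0977 CPM in any LPD library.

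Markers of division and of other cells moved with these genes. On CD, 11 of 12 proliferation genes were called higher (91.7%, against 18.7% of all genes), with a median log2FC of 2.11, and Pcna was not. The summed proliferation level was 47.5 to 84.9 CPM in CD Vec, 198 to 290 in CD oncogene, 64.6 to 68.3 in LPD Vec and 77.3 to 106 in LPD oncogene. Mki67 and Ccnb1 were called higher on LPD also, where Rrm2 was not. Mki67 held 48.0, 53.8 and 68.5 CPM in CD oncogene and was highest in replicate 3, as Rrm1 and Tyms were, whereas Rrm2 was highest in replicate 1. Among erythroid markers, Slc4a1 was called higher on CD and Alas2 was not. Slc4a1 read 9.70, 4.77 and 8.87 CPM in CD oncogene, the same order as Rrm2, and at most 0.398 in every other library. Alas2, the more abundant, read 158, 203 and 213 CPM in CD Vec and 181, 57.8 and 89.2 in CD oncogene. The part of any of these markers in the level of Rrm2 was not tested.

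**Figure D2:**
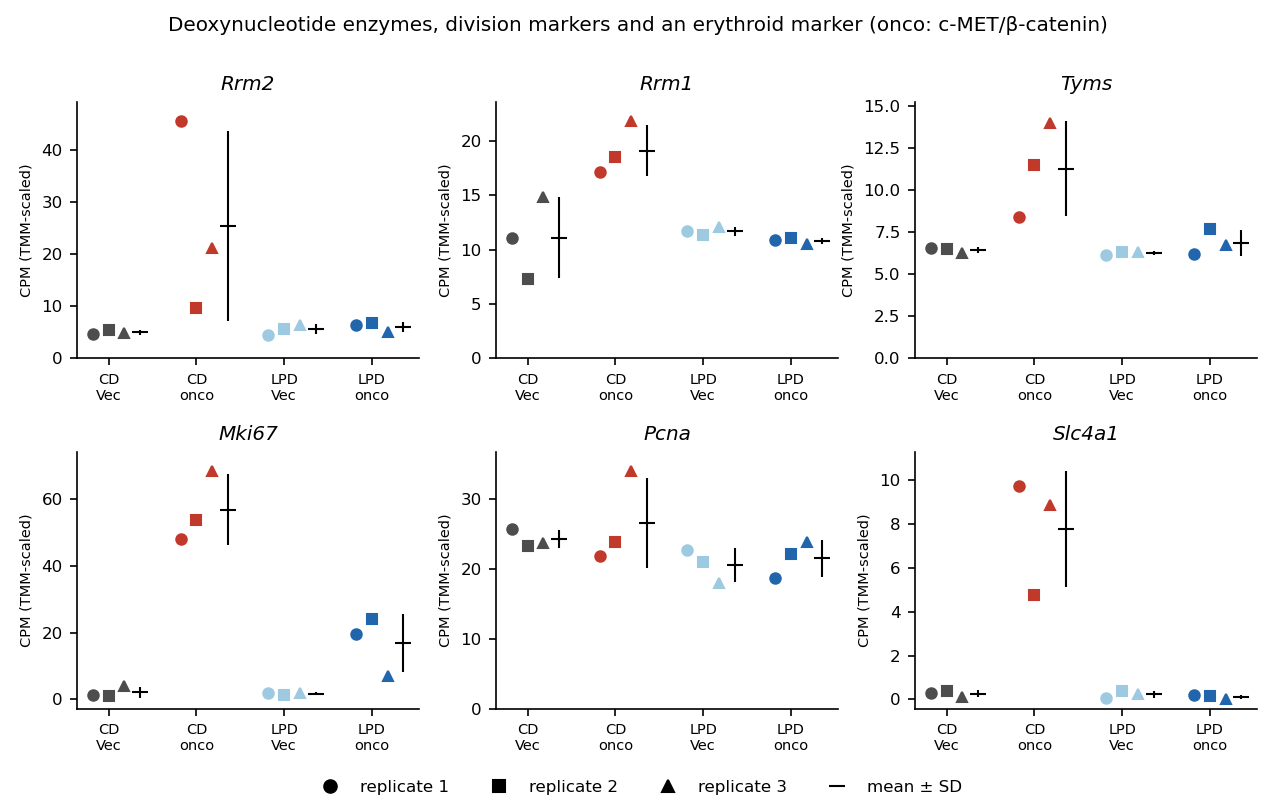
TMM-scaled CPM of Rrm2, Rrm1 and Tyms, the division markers Mki67 and Pcna and the erythroid marker Slc4a1 in each of 12 libraries, with symbols for replicates and the mean ± SD beside each group. Rrm2, Rrm1, Tyms, Mki67 and Slc4a1 are highest in the 3 CD oncogene libraries, and in LPD oncogene livers Mki67 (7.08 to 24.0 CPM) exceeds Vec while Rrm2 (4.99 to 6.74 CPM) does not.

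The nucleoside diphosphate kinases Nme1 and Nme2, which equalize the phosphate charge of the nucleotide pools, were not called in any comparison. Nme2 was the most abundant gene of the list per length after Uox, with group means of 236 to 252 CPM, and Nme1 had means of 17.4 to 21.0 CPM. The 2 genes are near-identical neighbors, so the division of reads between them is uncertain.

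Genes of de novo purine synthesis from PRPP to IMP and GMP were mostly lower in oncogene livers on CD. Of the 9 genes, 6 were called lower (where 16.7% of all genes were), 1 higher (18.7%) and 2 not called, and the median log2FC was -0.40. On LPD the 9 fitted values ran from -0.22 to -0.02 and 0 were called, and with scaling by library totals that of Paics was 0.04. Ppat, which catalyzes the committed step, read 37.6, 32.8 and 41.0 CPM in CD Vec, 17.9, 20.7 and 16.5 in CD oncogene, 34.0, 28.7 and 27.1 in LPD Vec, and 21.7, 26.5 and 28.9 in LPD oncogene. The CD oncogene libraries were the lowest 3 of the 12. Ppat fell 2.02-fold on CD (log2FC -1.02, SE 0.15, adjusted p = 0.000373). On LPD its log2FC was -0.22 (SE 0.15, adjusted p = 0.679), and the interaction of 0.80 was called (SE 0.21, adjusted p = 0.0367).

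Paics, the bifunctional enzyme of later steps, had the same pattern at a higher level. It stood at 251, 208 and 271 CPM in CD Vec, 130, 134 and 155 in CD oncogene, 259, 221 and 203 in LPD Vec, and 203, 223 and 225 in LPD oncogene. No library of another group was as low as those of CD oncogene. Paics fell 1.74-fold on CD (log2FC -0.80, SE 0.14, adjusted p = 0.00108), was at -0.07 on LPD (SE 0.14, adjusted p = 0.927), and had a called interaction of 0.73 (SE 0.20, adjusted p = 0.0411). In oncogene livers both genes were higher on LPD than on CD, Ppat by a log2FC of 0.49 (SE 0.15, adjusted p = 0.0374) and Paics by 0.63 (SE 0.14, adjusted p = 0.0089). Ppat (chr5:76913249-76951578, minus strand) and Paics (chr5:76951302-76967509, plus strand) are neighbors in opposite orientation whose RefSeq annotations (GRCm38.p6) overlap at their starts, so reads there may be shared. The interaction calls were not stable: leaving out 1 library at a time lost the call of Ppat in 8 and of Paics in 9 of 12 fits, with adjusted p up to 0.104 and 0.11. Both were also lost with scaling by library totals (0.0844 and 0.0968). With the header run term the interactions (adjusted p = 0.16 for Ppat and 0.339 for Paics) and the diet differences (0.154 and 0.246) were not called. The diet call of Ppat in oncogene livers was lost in 5 such fits, without CD oncogene replicate 1 or 3, LPD Vec replicate 2, or LPD oncogene replicate 2 or 3 (0.0578 to 0.138).

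Gart and Pfas, which act between Ppat and Paics, Atic, which completes IMP, and Gmps, which makes GMP, fell less on CD, by 0.39, 0.49, 0.40 and 0.53 on the log2 scale. Gmps averaged 51.1 CPM ± 3.05 (SD, n = 3) in CD Vec and 35.2 ± 7.71 in CD oncogene (adjusted p = 0.0117). Adsl (log2FC -0.12) and Impdh2 (0.14) were not called. With scaling by library totals, Gart, Pfas, Atic and Gmps kept a negative log2FC, from -0.25 to -0.10, but were not called. Gart also lost its call without CD Vec replicate 2 or 3 or CD oncogene replicate 1 or 2 (adjusted p = 0.0517 to 0.0755). Pfas lost it without CD Vec replicate 1 or 3 or CD oncogene replicate 1 or 2 (0.0518 to 0.105), and Atic without CD Vec replicate 2 or CD oncogene replicate 2 or 3 (0.0504 to 0.0938).

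Impdh1, an IMP dehydrogenase of the guanine branch, was the purine synthesis gene that rose. It read 3.26, 2.33 and 2.92 CPM in CD Vec, 12.2, 6.45 and 4.83 in CD oncogene, 4.61, 5.03 and 3.69 in LPD Vec, and 3.42, 5.16 and 4.46 in LPD oncogene. The 3 CD oncogene libraries were above CD Vec, and the lowest of them lay within the range of the LPD libraries. Impdh1 rose 2.77-fold on CD (log2FC 1.47, SE 0.33, adjusted p = 0.00448), and its interaction of -1.50 was not called (SE 0.46, adjusted p = 0.0617). Of 8 leukocyte markers, 3 were called higher on CD (37.5%, against 18.7% of all genes). The sum of the 8 was 29.6 to 65.6 CPM in CD Vec and 85.3 to 98.1 in CD oncogene. Of 5 mesenchymal markers 3 were called higher (60.0%), with sums of 42.5 to 73.9 and 86.0 to 423 CPM. Their part in the level of Impdh1 was not tested.

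PRPP synthetases and the purine phosphoribosyltransferases, which join PRPP to a free base, divided on CD. Prps1 fell by 0.54 on the log2 scale (SE 0.11, adjusted p = 0.0026), from 33.6, 34.2 and 30.3 CPM in CD Vec to 22.4, 21.3 and 23.8 in CD oncogene, ranges that did not overlap. Prps2 had a log2FC of -0.52 (adjusted p = 0.054). Hprt, which salvages hypoxanthine and guanine, fell by 0.41 (SE 0.13, adjusted p = 0.0304), from 27.6, 27.9 and 26.8 CPM in CD Vec to 24.6, 16.6 and 20.6 in CD oncogene, ranges that did not overlap. On LPD it held 25.1 to 27.5 CPM in all 6 libraries. Aprt, which salvages adenine, went up. Its libraries read 19.2, 40.1 and 29.8 CPM in CD Vec, 52.7, 63.7 and 68.4 in CD oncogene, 21.5, 24.0 and 22.8 in LPD Vec, and 31.8, 29.5 and 27.9 in LPD oncogene. All 3 CD oncogene libraries exceeded the other 9, and on LPD the 3 oncogene libraries were above the 3 Vec libraries. Aprt rose 2.08-fold on CD (log2FC 1.05, SE 0.21, adjusted p = 0.0024) and was lower on LPD than on CD in oncogene livers (-1.05, SE 0.21, adjusted p = 0.00535). Prps1 and Hprt were not called with scaling by library totals (-0.25 and -0.13). Hprt also lost its call without CD Vec replicate 1 or 3 or CD oncogene replicate 2 or 3 (adjusted p = 0.0551 to 0.105).

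**Figure D3:**
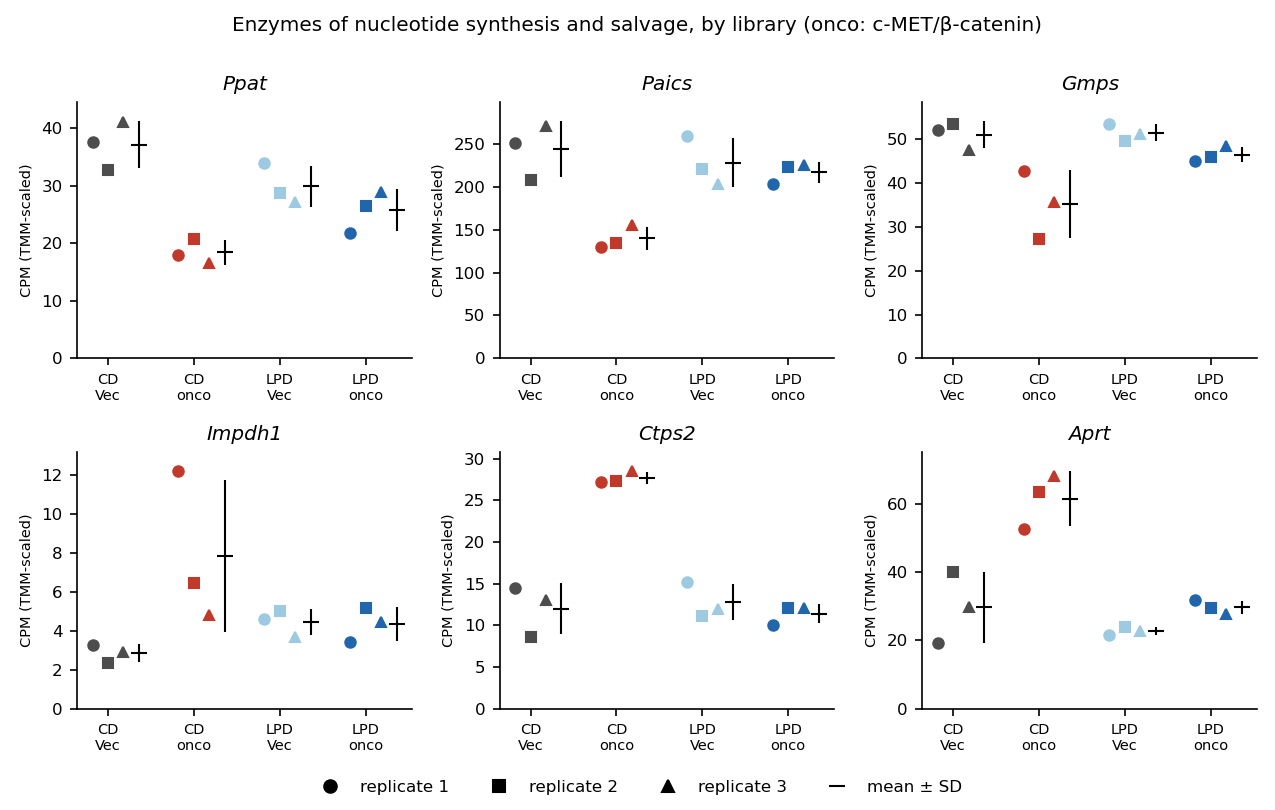
TMM-scaled CPM of Ppat, Paics, Gmps and Impdh1 of purine synthesis, the CTP synthase Ctps2 and the salvage enzyme Aprt in each library, with symbols for replicates and the mean ± SD beside each group. Ppat, Paics and Gmps are lowest and Ctps2 and Aprt highest in the 3 CD oncogene libraries, while Impdh1 spreads from 4.83 to 12.2 CPM in that group.

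The largest falls on CD were among the enzymes of nucleotide breakdown. All 5 pyrimidine breakdown genes were called on CD (where 35.4% of all genes were), 4 lower (16.7%) and 1 higher (18.7%). On LPD 0 were called (1.32%). Dpyd, dihydropyrimidine dehydrogenase, performs the first and rate-limiting step of uracil and thymine degradation. It read 743, 565 and 743 CPM in CD Vec, 161, 128 and 198 in CD oncogene, 578, 373 and 448 in LPD Vec, and 371, 309 and 380 in LPD oncogene. The CD oncogene libraries lay far below all others, and the LPD groups overlapped. Dpyd fell 4.21-fold on CD (log2FC -2.07, SE 0.21, adjusted p = 4.16e-05). On LPD the log2FC was -0.40 (SE 0.20, adjusted p = 0.509). In oncogene livers Dpyd was 2.18-fold higher on LPD than on CD (log2FC 1.12, SE 0.21, adjusted p = 0.00356). The interaction of 1.67 was called (SE 0.29, adjusted p = 0.00789). Leaving out any 1 of the 12 libraries kept that call. The header run term ended the calls of the diet difference (0.83, adjusted p = 0.146) and of the interaction (1.35, 0.12).

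Dpys and Upb1 carry out the second and the third step after Dpyd. Dpys levels were 293, 301 and 270 CPM in CD Vec, 136, 154 and 161 in CD oncogene, 308, 256 and 198 in LPD Vec, and 189, 274 and 306 in LPD oncogene, so the CD oncogene libraries were the lowest 3 of the 12. Dpys fell by 0.94 on the log2 scale on CD (SE 0.19, adjusted p = 0.00297) and was higher on LPD than on CD in oncogene livers (0.77, adjusted p = 0.0162). Its interaction of 0.95 was not called (adjusted p = 0.0507). The diet call was lost without LPD oncogene replicate 2 or 3 (adjusted p = 0.0523 and 0.0726). Upb1 fell by 0.81 on CD (SE 0.18, adjusted p = 0.00499), from 289, 404 and 329 CPM to 149, 224 and 210. Upb1 was not called in another comparison, with 250, 227 and 200 CPM in LPD Vec and 163, 168 and 206 in LPD oncogene.

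The uridine phosphorylases split uridine into uracil and ribose phosphate, and the 2 forms went in opposite directions. Upp2, the form prominent in liver, read 335, 414 and 753 CPM in CD Vec, 11.1, 40.9 and 57.4 in CD oncogene, 199, 78.8 and 101 in LPD Vec, and 63.9, 45.1 and 85.2 in LPD oncogene. The CD Vec libraries were the highest 3 of the 12, and the other 3 groups were all lower. Upp2 fell 13.7-fold on CD (log2FC -3.78, SE 0.60, adjusted p = 0.000695), the largest change of the list. On LPD it had a log2FC of -0.96 (SE 0.54, adjusted p = 0.577), and between LPD and CD in Vec of -1.99 (SE 0.55, adjusted p = 0.177), which DESeq2 called (adjusted p = 0.00576). The interaction of 2.82 was called (SE 0.77, adjusted p = 0.0457) but was lost on leaving out 8 of the 12 libraries, 1 at a time, with adjusted p from 0.0531 to 0.113. Upp1, the more widely expressed form, was scarce. It read 1.99, 1.14 and 0.833 CPM in CD Vec, 7.31, 2.04 and 3.07 in CD oncogene, and 0.872 to 1.66 in the LPD libraries. Replicate 1 of CD oncogene stood apart. Upp1 was called higher on CD (log2FC 1.65, SE 0.48, adjusted p = 0.0193) and lower on LPD than on CD in oncogene livers (-1.65, adjusted p = 0.0298). Without CD oncogene replicate 1 these were 0.95 (adjusted p = 0.103) and -0.94 (0.143). The first was also lost without CD Vec replicate 2 or 3 (0.0571 and 0.0677), and the second without any 1 of the 3 LPD oncogene libraries (0.0621 to 0.104).

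In purine breakdown, Uox and Xdh differed. Uox, the urate oxidase that mice have and humans lack, was the most abundant enzyme of the list. It read 3434, 1838 and 2716 CPM in CD Vec, 740, 678 and 908 in CD oncogene, 2522, 2156 and 2142 in LPD Vec, and 1629, 1537 and 1880 in LPD oncogene. The CD oncogene libraries were the lowest, and on LPD the 3 oncogene libraries were below the 3 Vec libraries. Uox fell 3.43-fold on CD (log2FC -1.78, SE 0.22, adjusted p = 0.000122). On LPD the log2FC was -0.43 (SE 0.21, adjusted p = 0.49). In oncogene livers Uox was higher on LPD than on CD (1.12, SE 0.21, adjusted p = 0.00453), and the interaction of 1.35 was called (SE 0.30, adjusted p = 0.021). The interaction was not called without LPD Vec replicate 2 or 3 or LPD oncogene replicate 3 (adjusted p = 0.0581 to 0.068). With the header run term, neither the diet difference (0.89, adjusted p = 0.166) nor the interaction (1.09, 0.241) was called. Xdh, which oxidizes hypoxanthine and xanthine to urate one step earlier, was not called in any comparison. Xdh read 186, 173 and 207 CPM in CD Vec, 122, 203 and 272 in CD oncogene, 152, 131 and 119 in LPD Vec, and 156, 187 and 164 in LPD oncogene. Its CD groups overlapped, with a log2FC of 0.08 (SE 0.23, adjusted p = 0.818).

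Hepatocyte markers did not fall together with the breakdown enzymes on CD. Of 7, Tf was called higher, Ttr and Apob were called lower, and Alb, Apoa1, Fgb and Hnf4a were not called. Their summed level was 120844 to 124785 CPM in CD Vec and 116638 to 138404 in CD oncogene. Alb (means of 73586 and 64072 CPM) and Tf (20782 and 34830) made up most of that sum. CD Vec replicate 3 and CD oncogene replicate 3 belong to the same header run. Between those 2 libraries Dpyd read 743 and 198 CPM, Uox 2716 and 908, Upp2 753 and 57.4 and Dpys 270 and 161, while Umps read 39.7 and 36.2. With the header run term, Dpyd and Uox kept their calls on CD, and Dpys (adjusted p = 0.25) and Upp2 (0.0839) lost theirs. These are values of 1 library per group, and the part of the run in them was not tested.

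**Figure D4:**
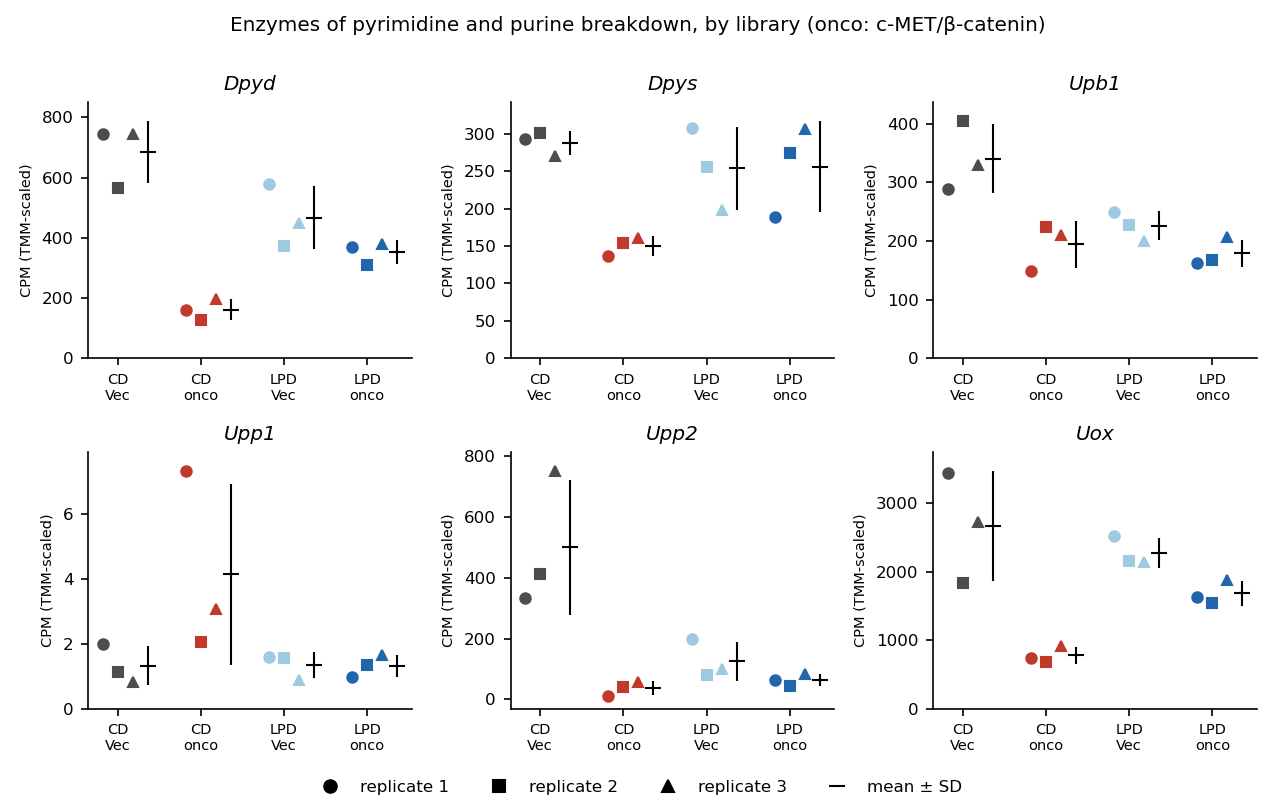
TMM-scaled CPM of Dpyd, Dpys, Upb1, Upp1, Upp2 and Uox in each library, with symbols for replicates and the mean ± SD beside each group. In CD oncogene livers Dpyd (128 to 198 CPM), Dpys (136 to 161 CPM) and Uox (678 to 908 CPM) are below all other libraries and Upp1 (2.04 to 7.31 CPM) is above them, while Upp2 is lower in 3 groups than in CD Vec.

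Several steps of nucleotide metabolism are served by a pair of isoenzymes, whose levels were set side by side as CPM per kilobase of annotated exon, as a description with no test. The log2 ratio of Rrm2 to Rrm2b was 1.64 to 2.95 in CD Vec and 3.34 to 5.50 in CD oncogene, with 1.92 to 3.04 and 1.98 to 2.71 in the Vec and oncogene groups on LPD. Rrm2 thus exceeded Rrm2b in every library. The log2 ratio of Upp1 to Upp2 went from a range of -7.84 to -5.41 in CD Vec to -2.34 to 1.38 in CD oncogene. It was -4.99 to -3.67 in LPD Vec and -4.05 to -3.09 in LPD oncogene, so only CD oncogene replicate 1 had more Upp1 than Upp2. Impdh2 outweighed Impdh1 in every library, with log2 ratios of Impdh1 to Impdh2 of -2.91 to -1.44 in CD oncogene and lower values, down to -4.11, in all CD Vec libraries. The ratio of Tk1 to Tk2 lay between -1.08 and 0.19 in CD Vec and between -2.27 and -0.80 in CD oncogene. Uck2 was below Uck1 (-4.72 to -3.66 over all 12 libraries) and Prps2 below Prps1 (-2.17 to -1.36), and the CD Vec and CD oncogene ranges overlapped for both. On LPD the Prps2 to Prps1 ratios lay apart, at -1.68 to -1.59 in Vec and -1.93 to -1.83 in oncogene livers.

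**Figure D5:**
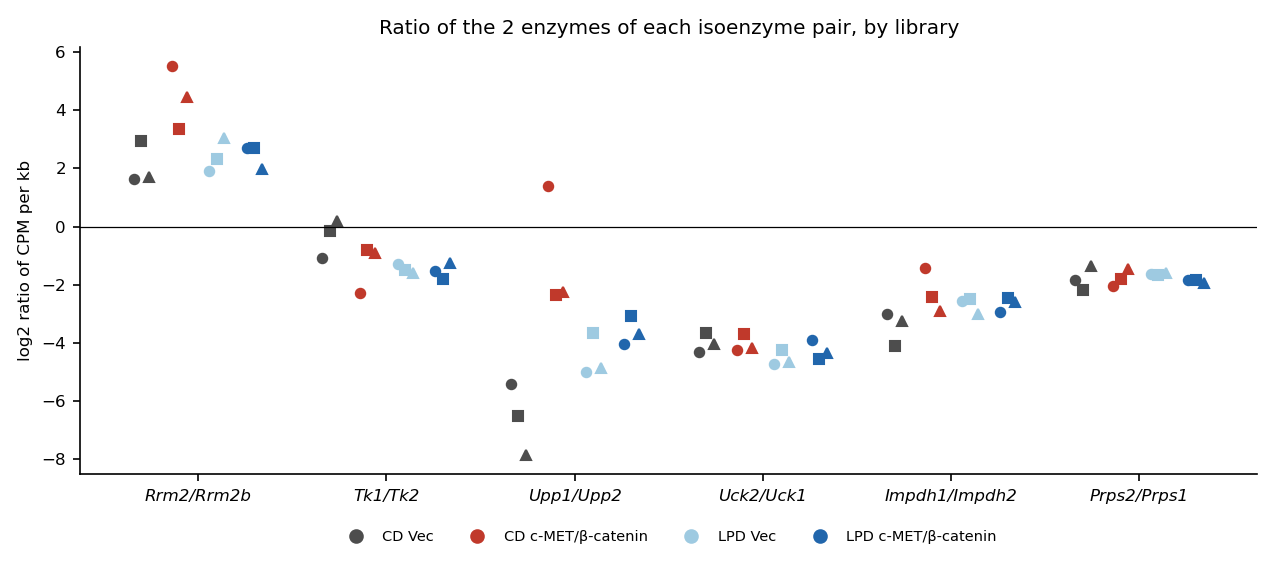
Log2 ratio of CPM per kilobase of the 2 enzymes of 6 isoenzyme pairs, 1 point per library, with color for the group and symbols for replicates as in the plots of levels. The CD oncogene points lie above the CD Vec points for Rrm2/Rrm2b (3.34 to 5.50 against 1.64 to 2.95), Upp1/Upp2 and Impdh1/Impdh2, and overlap them for the other 3 pairs.

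Other genes of nucleotide metabolism were counted from lists by function. Of 39 further nucleotide enzymes, 37 were tested, and on CD 9 were called higher (24.3%, against 18.7% of all genes) and 10 lower (27.0%, against 16.7%). The largest rises were those of Nt5e, which dephosphorylates extracellular AMP (log2FC 4.18), Cmpk2 (2.31) and Lacc1 (1.87). The largest falls included those of the mitochondrial adenylate kinase Ak4 (-2.73) and the thymidine phosphorylase Tymp (-1.47). On LPD only Adss was called, an adenylosuccinate synthase that was higher on both diets (0.64 on CD and 0.53 on LPD, adjusted p = 0.0275 on LPD). The interaction was called for 7 of the 37 (18.9%, against 8.91% of all genes), among them positive for Adk (0.75) and Ak3 (0.78) and negative for Nt5c (-0.73), Nt5c2 (-1.37), Nt5e (-2.68) and Lacc1 (-1.76). Of 7 nucleoside transporters 4 were tested. On CD, Slc28a2 was called higher (1.55) and Slc29a2 lower (-1.63), 25.0% each way, against 18.7% and 16.7% of all genes. The interaction was called for Slc29a2 (1.76).

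Folate enzymes supply the one-carbon units of purines and dTMP. Of 14, 5 were called higher on CD (35.7%, against 18.7% of all genes) and 5 lower (35.7%, against 16.7%). On LPD 0 were called (against 1.32%), with 4 at an unadjusted p under 0.05 (1545 of all 13947 genes tested). Those with the largest rises are mitochondrial: Mthfd2 (log2FC 3.05), Aldh1l2 (2.64) and Mthfd1l (2.60). Those with the largest falls are cytosolic: Ftcd (-1.79), Aldh1l1 (-1.27) and Mthfd1 (-1.19). The interaction was called for Mthfd2 (-2.94), Mthfd1l (-1.91) and Ftcd (1.59), or 21.4%, against 8.91% of all genes. Mthfd2 read 0.968, 2.10 and 2.86 CPM in CD Vec and 5.33, 9.46 and 15.6 in LPD Vec, a difference between diets that was not called (adjusted p = 0.053). Of 13 E2F and MYC regulators, 4 were called higher on CD (30.8%, against 18.7% of all genes) and 0 were called lower (against 16.7%). The largest changes were in E2f2 (1.82), Rbl1 (1.67) and Mycn (1.65). Myc itself read 1.58, 1.65 and 16.0 CPM in CD Vec and 25.4, 8.04 and 6.29 in CD oncogene and was not called.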

How the data were processed

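The authors deposited 1 table of raw read counts per gene for 12 liver libraries, 3 per group. The labels name HISAT2, DESeq and build mm10, and the methods name featureCounts. The labels give hepatocyte as the cell type, although RNA came from whole frozen liver. The methods name a preparation guide for stranded libraries. The versions and the strand setting of the counting are not given in the sources used here. The labels describe ribosomal RNA depletion and the methods mRNA selection. The column names write HPD where the labels say chow diet, and the study uses HPD for a high-protein diet in another experiment. Columns were matched to samples by their descriptions, and 0 columns were unmatched. Gene names came from Entrez identifiers through RefSeq (GRCm38.p6), and exon lengths from GENCODE.

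Counts were filtered with filterByExpr (13947 of 27179 genes kept), scaled by TMM and fitted over all 4 groups with edgeR 4.0.16 in R 4.3.3 (robust quasi-likelihood test, Benjamini-Hochberg adjustment, threshold 0.05). The alternatives were DESeq2 1.42.0, its size factors in edgeR, library totals, no filter, only the 2 groups compared, a replicate block, a term for the header runs, and leaving out each library. Replicate numbers were not taken as pairs.

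The genes and lists were chosen with earlier results of these data known. Every gene is accounted for by role. Library values are given for the called genes with the largest change in each role and direction and for Cad, Ppat, Rrm1, Rrm2, Tyms, Dpyd and Xdh. Values of Tk1, Dctd, Umps, Prps1, Upb1, Dpys, Gmps, Myc and of the markers beside results were added after they were seen. In the other lists of enzymes, transporters and regulators, genes called in the interaction or among the 3 largest changes each way on CD are named. Adss, the only gene of these lists called on LPD, is named too. Genes of these lists that are not reported here are the exception, and the counts include them. Endothelial markers (0 of 4 called on CD) and cholangiocyte markers (Krt19 of 4 called higher) were counted also. Low counts limit precision: Upp1, Impdh1 and Dctd were among the scarcest genes.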

Additional observations from a re-analysis of the deposited data

Results flagged for a closer look

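For 7 enzyme genes the effect of c-MET/β-catenin against Vec differed between the diets by the interaction term of edgeR's quasi-likelihood fit, given as the log2 fold change on LPD minus that on CD. Breakdown genes had positive values, which were 1.67 for Dpyd (adjusted p = 0.00789), 1.35 for Uox (0.021) and 2.82 for Upp2 (0.0457). The purine synthesis genes Ppat and Paics had values of 0.80 (adjusted p = 0.0367) and 0.73 (0.0411). Ctps2, a CTP synthase, had -1.36 (adjusted p = 0.0127) and Rrm2, the small subunit of ribonucleotide reductase, -2.24 (0.0401). All 7 were called on CD and none on LPD, and each kept its sign in every fit of the interaction. Ctps2 and Dpyd kept the call on leaving out any 1 library, and the other 5 lost it in 3 to 9 of 12 such fits. With the header run term 0 of the 7 were called.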

How the results depend on the processing

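On CD, 21 of 39 genes were called, and 13 were with only the 2 groups compared, 5 with the header run term and 18 to 24 on leaving out 1 library. On LPD the count was 0 in every setting run. Between diets in Vec it was 0, but 2 with DESeq2 and 0 to 1 on leaving out 1 library (Tk1, without CD Vec replicate 1). Between diets in c-MET/β-catenin livers it was 11 (5 higher and 6 lower), with 3 under the header run term (0 higher and 3 lower) and 6 to 15 on leaving out 1 library. For the interaction it was 7, with 4 without the filter on low counts, 0 with the header run term and 2 to 7 on leaving out 1 library. The cause of these changes was not tested, except that fits with fewer libraries or more terms have fewer residual degrees of freedom.

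The replicate block gave 21, 0, 0, 9 and 3 calls in the 5 comparisons. Same-numbered libraries did not deviate together (18 correlations, from -0.183 to 0.167), so the numbers are not taken as pairs.

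The log2 fold changes that changed sign were uncalled ones. That of Cad on CD (-0.28) was 0.02 with library totals and ran from -0.52 to 0.20 on leaving out 1 library. That of Xdh on CD ran from -0.22 to 0.33, that of Rrm2 on LPD from -0.01 to 0.24, and that of Paics on LPD from -0.15 to 0.03, or 0.04 with library totals. Of the 21 calls on CD, 4 held in every alternative, 12 in all but the header run term and 16 in every fit that left out 1 library. In the 250 bases before the start alone, TTTNNCGC was found for 11.4% of the 35 genes (5.88% of all genes), CCAAT for 31.4% (39.3%) and CACGTG for 17.1% (7.63%).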
